A study of Mus musculus with 7 samples.

Results

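Dual-specificity phosphatases remove phosphate from both the threonine and the tyrosine of an active MAP kinase, and 10 genes of this family, Dusp1, Dusp2, Dusp4, Dusp5, Dusp6, Dusp7, Dusp10, Dusp11, Dusp16 and Dusp22, were followed in naive CD4 T cells with an overactive PI3K delta. They were chosen by gene symbol from the 34745 genes of the expression table, and all 10 also passed the filter on low counts, which left 12668 genes. RNA was sequenced from splenic naive CD4 T cells of 4 mice heterozygous for a gain-of-function allele of PIK3CD (GOF) and of 3 wild-type (WT) littermates. All 7 mice were male C57BL/6 mice aged 8 weeks, received no treatment, and were sampled without culture after a negative selection that removes other cells. Pik3cd encodes p110delta, the catalytic subunit of the phosphoinositide 3-kinase of leukocytes. Neither the sequence change of the allele nor the way it was introduced is stated in the labels.

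MAP kinases are switched on by a chain of kinases upstream of them and switched off mostly by these phosphatases. Dusp1, Dusp2, Dusp4 and Dusp5 encode nuclear enzymes whose genes are themselves induced by growth factor and antigen receptor signals. Dusp6 and Dusp7 encode cytoplasmic enzymes selective for ERK, and Dusp10 and Dusp16 encode enzymes that act on JNK and p38. Dusp22 and Dusp11 are atypical members without the MAP kinase-binding domain. Dusp22 acts in T cells on the kinase Lck, and Dusp11 is known as a phosphatase of RNA 5′ ends, so that the name MAP kinase phosphatase describes it least well. In T cells the family is known as feedback control of ERK, JNK and p38 after antigen receptor signals.

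Of the 10 genes, 7 were higher in GOF than in WT cells at an adjusted p under 0.05 (edgeR quasi-likelihood test with Benjamini-Hochberg adjustment over all 12668 genes), where 16.8% of all tested genes were higher. None was lower at that threshold, where 14.5% of all tested genes were lower and 31.3% differed in either direction, although 2 members, Dusp16 and Dusp11, had unadjusted p-values under 0.05 on the lower side and DESeq2 also called 0 lower. With column totals in place of TMM scaling the split over all genes was 2527 higher and 1428 lower, against 2130 and 1838, and the members' counts stayed at 7 and 0. Values in CPM (counts per 1000000 counts of a library, scaled by TMM) did not overlap between GOF and WT mice for 8 of the 10 members, where 39.8% of all tested genes had groups that did not overlap. The median log2 fold change of GOF over WT was 1.30 over the 10 members and 0.01 over all tested genes. The 7 genes were all 4 nuclear inducible members, Dusp6, Dusp10 and Dusp22. The 10 members were chosen with earlier results of these data known, so their counts and median are no independent evidence. The design text counts mice per group and each library was taken as 1 mouse. In bulk RNA fewer cells of a type and less RNA per cell cannot be told apart.

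**Figure D1:**
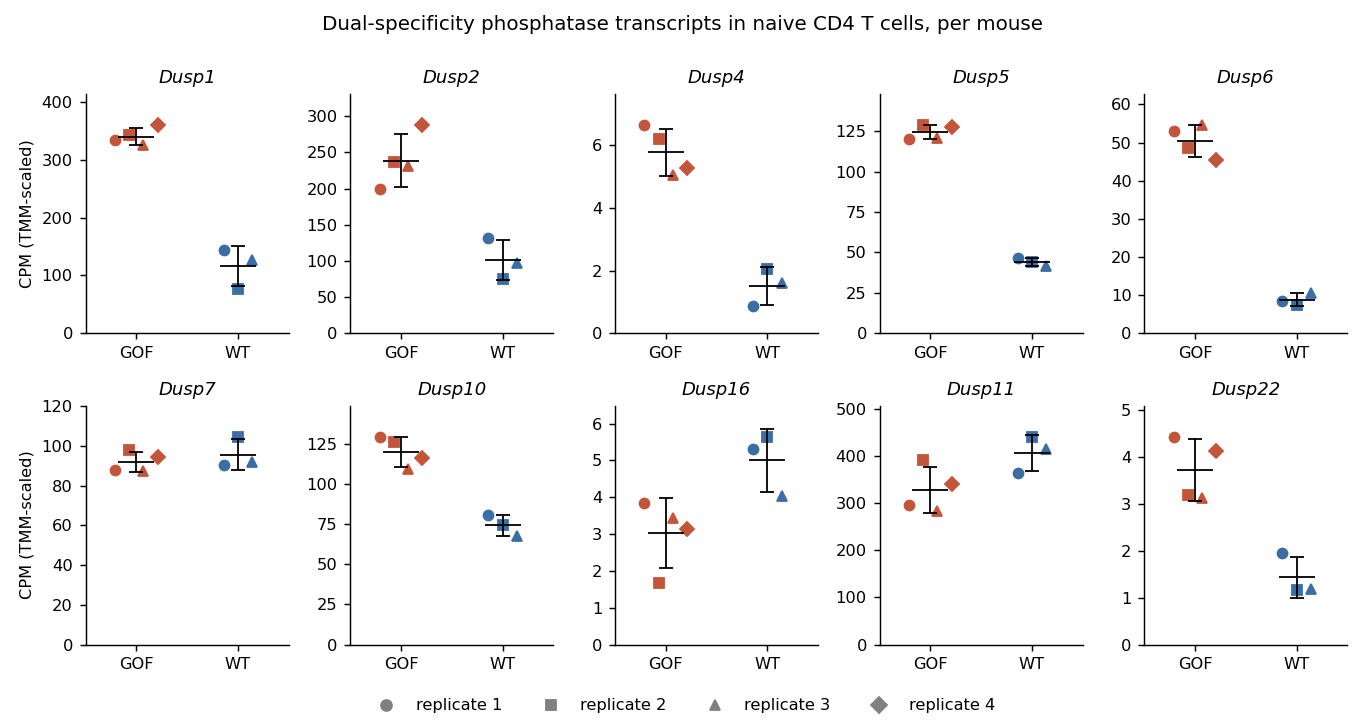
Counts per 1000000 counts (CPM, TMM-scaled, linear axis from 0) of each phosphatase transcript in 4 GOF and 3 WT mice, with 1 symbol per mouse by replicate number and black bars for the mean ± SD. The GOF points lie above the WT points for Dusp1, Dusp2, Dusp4, Dusp5, Dusp6, Dusp10 and Dusp22, and below them for Dusp16. For Dusp7 and Dusp11 the points overlap. Of the GOF points of Dusp11, only replicate 2 lies within the WT range and the others lie below it.

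The promoter sequences of RefSeq (GRCm38.p6, from 250 bases before to 50 after the start site) held an entry for 9 of the 10 members, all but Dusp4. Those of Dusp1, Dusp5, Dusp6 and Dusp7 are printed 5′ to 3′ on the coding strand. The first 3 genes were called higher while Dusp7, the closest relative of Dusp6, was not. Dusp2, Dusp10 and Dusp22 were also called higher, and their windows are not printed. Capitals mark the core of the cAMP response element (CRE), the CACGTG E-box and the CArG box to which serum response factor binds.
Dusp1, chr17:26508423-26508722, minus strand: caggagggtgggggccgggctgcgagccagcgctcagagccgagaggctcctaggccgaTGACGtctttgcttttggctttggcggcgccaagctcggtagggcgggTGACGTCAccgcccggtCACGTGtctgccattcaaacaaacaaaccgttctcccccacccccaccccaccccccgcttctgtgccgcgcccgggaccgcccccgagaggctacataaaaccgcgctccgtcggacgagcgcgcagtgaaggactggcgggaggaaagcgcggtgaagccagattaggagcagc
Dusp5, chr19:53528895-53529194, plus strand: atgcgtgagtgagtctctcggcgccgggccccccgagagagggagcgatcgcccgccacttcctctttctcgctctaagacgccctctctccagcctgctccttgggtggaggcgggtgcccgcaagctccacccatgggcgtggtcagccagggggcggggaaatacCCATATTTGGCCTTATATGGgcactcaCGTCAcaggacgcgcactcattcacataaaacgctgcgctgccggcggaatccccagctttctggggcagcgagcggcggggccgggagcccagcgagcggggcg
Dusp6, chr10:99262981-99263280, plus strand: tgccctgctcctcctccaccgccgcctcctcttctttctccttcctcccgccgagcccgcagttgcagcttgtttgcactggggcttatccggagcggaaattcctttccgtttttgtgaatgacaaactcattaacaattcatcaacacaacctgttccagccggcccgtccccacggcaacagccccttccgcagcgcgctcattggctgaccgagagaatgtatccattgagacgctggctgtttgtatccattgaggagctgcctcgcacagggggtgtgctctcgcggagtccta
Dusp7, chr9:106368382-106368681, plus strand: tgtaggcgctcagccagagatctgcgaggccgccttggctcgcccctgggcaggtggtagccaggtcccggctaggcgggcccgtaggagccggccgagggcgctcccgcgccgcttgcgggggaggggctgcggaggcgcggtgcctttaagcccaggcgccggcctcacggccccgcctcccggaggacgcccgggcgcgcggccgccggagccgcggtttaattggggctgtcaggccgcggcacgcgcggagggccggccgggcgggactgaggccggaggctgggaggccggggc
In the Dusp1 window a whole CRE, TGACGTCA, stood at -143 to -136 from the start site, with a further core at -191 to -187 and an E-box at -126 to -121. In the Dusp5 window a pair of CArG boxes stood end to end at -82 to -73 and -72 to -63, followed by a CRE core at -55 to -51.

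Both strands of 32851 RefSeq promoters were searched for the same letters. The whole CRE was in 1.79% of them, the core TGACG, which is contained in the whole element, in 20.8%, the CArG box in 1.63% and the E-box in 7.15%. The CRE core was in 5 of the 9 members' windows (Dusp1, Dusp2, Dusp5, Dusp11 and Dusp16), 3 of them genes called higher and 2 not called. The E-box was in those of Dusp1 and Dusp2. An EGR element, GCGNGGGCG, was in those of Dusp2, Dusp16 and Dusp22 and in 5.55% of all promoters. The kappaB element, searched as an approximate form, overlapped the first CArG box of Dusp5 and was in 1.63% of all promoters. The AP-1 element TGANTCA (7.81% of all promoters), the forkhead element GTAAACA (3.65%) and the ETS element CCGGAAGT (3.89%) were in none of the 9 windows. The windows of Dusp6, Dusp7 and Dusp10 held none of the 9 motifs, so genes with and without a difference shared that property. The Dusp6 window had 57.3% G and C and the Dusp7 window 78.7%. These matches describe letters in a fixed window and not binding.

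Dusp6, the ERK-selective cytoplasmic phosphatase (ENSMUSG00000019960, mm10 chromosome 10, 99263231 to 99267488), differed most. It was read at 53.0, 48.5, 54.5 and 45.4 CPM in the GOF mice, against 8.48, 7.44 and 10.7 CPM in the WT mice. All GOF mice lay far above all WT mice. GOF over WT gave a log2 fold change of 2.51 (SE 0.15, 95% confidence interval 2.16 to 2.85, edgeR adjusted p = 8.41e-06), and 4.34% of all tested genes had a log2 fold change at least as high.

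Dusp7 (ENSMUSG00000053716, chromosome 9, 106368632 to 106375724), which encodes the other cytoplasmic ERK phosphatase, was read at 88.0, 97.8, 87.3 and 94.5 CPM in GOF cells, against 90.4, 104.6 and 91.8 CPM in WT cells. The groups overlapped. Its log2 fold change was -0.06, with a 95% confidence interval from -0.26 to 0.15 (edgeR adjusted p = 0.667), which leaves out a difference of the size seen for Dusp6. Its sign turned under other scalings and without WT replicate 2 (0.01, adjusted p = 0.955). Per kilobase, Dusp6 stood at 0.552 to 0.717 of the Dusp7 level in the GOF mice and at 0.0817 to 0.133 of it in the WT mice. The ratio of these relatives did not overlap between the groups, and a two-sided exact permutation test of its log2 value gave p = 0.0571, the smallest that 4 against 3 mice allow (0.0714 adjusted over 5 such pairs).

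Among the nuclear inducible members, Dusp1 (ENSMUSG00000024190, chromosome 17, 26505590 to 26508519), which acts on p38 and JNK and also on ERK, was read at 334, 342, 326 and 359 CPM in GOF mice, against 144, 77.5 and 128 CPM in WT mice. The 4 GOF mice lay close together and all above the WT mice, among which replicate 2 was lowest. Dusp1 thus had a log2 fold change of 1.55 (SE 0.19, edgeR adjusted p = 0.000405), or 1.32 without WT replicate 2.

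Dusp2 (ENSMUSG00000027368, chromosome 2, 127336159 to 127338376), known as a phosphatase of activated lymphocytes, was read at 199.8, 237, 231 and 287 CPM in GOF mice, against 131, 75.5 and 97.5 CPM in WT mice. Replicate 2 was again the lowest WT mouse, and replicate 4 the highest GOF mouse. Its log2 fold change was 1.24 (SE 0.19, edgeR adjusted p = 0.00148). Per kilobase, the Dusp2 level was 0.737 to 0.984 of the Dusp1 level in GOF mice and 0.940 to 1.20 of it in WT mice, and these ranges overlapped (exact permutation p = 0.114).

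Dusp5 (ENSMUSG00000034765, chromosome 19, 53529109 to 53542431), a nuclear phosphatase selective for ERK, had the tightest replicates. It was read at 120.1, 128, 121 and 128 CPM in GOF mice, against 46.5, 44.3 and 41.7 CPM in WT mice. The coefficient of variation was 3.56% among the GOF mice and 5.41% among the WT mice, the lowest of the 10 genes in both groups. Between them the log2 fold change was 1.49 (SE 0.09, edgeR adjusted p = 6.79e-06). The antisense transcript AC137853.2 shares 547 exon bases with Dusp5, and without a stated strand setting reads of both cannot be told apart. In GOF mice the Dusp5 level per kilobase was 2.51 to 3.18 times that of Dusp6, and in WT mice 4.43 to 6.74 times, with no overlap (exact permutation p = 0.0571, adjusted 0.0714).

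Dusp4 (ENSMUSG00000031530, chromosome 8, 34807297 to 34819894), a further nuclear phosphatase of ERK and JNK, was low in all mice. It was read at 6.64, 6.19, 5.05 and 5.27 CPM in GOF mice, against 0.862, 2.07 and 1.601 CPM in WT mice, from 82 to 102 counts per GOF library and 12 to 30 per WT library. The groups did not overlap, and the WT mice varied by a coefficient of variation of 40.2%. Dusp4 had a log2 fold change of 1.93 (SE 0.32, edgeR adjusted p = 0.00225).

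Of the JNK and p38 phosphatases, Dusp10 (ENSMUSG00000039384, chromosome 1, 184013302 to 184075636) was read at 129.8, 126, 109 and 116 CPM in GOF mice, against 80.7, 74.7 and 67.7 CPM in WT mice. All GOF mice lay above all WT mice, by the smallest fold of the 7 genes called higher. Its log2 fold change was 0.70 (SE 0.10, edgeR adjusted p = 0.00104). The gene 1700056E22Rik lies antisense within the span of Dusp10 and shares 0 exon bases with it. It had 166 to 190 counts per GOF library, against 41 to 72 per WT library, and is named here after its values were seen.

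Dusp16 (ENSMUSG00000030203, chromosome 6, 134715468 to 134792625) was read at 3.84, 1.66, 3.43 and 3.15 CPM in GOF mice, against 5.32, 5.65 and 4.04 CPM in WT mice. The groups did not overlap, although GOF replicate 1 and WT replicate 3 nearly met. From 26 to 59 counts per GOF library and 58 to 82 per WT library, the log2 fold change was -0.73 (SE 0.31, 95% confidence interval -1.43 to -0.02), short of the threshold (edgeR adjusted p = 0.110). It passed after quantile normalization with limma (log2 fold change -1.03, adjusted p = 0.0126). Per kilobase, Dusp10 stood at 58.3 to 139 times the Dusp16 level in GOF mice and at 24.2 to 30.7 times in WT mice, without overlap (exact permutation p = 0.0571, adjusted 0.0714).

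The atypical phosphatase Dusp22 (ENSMUSG00000069255, chromosome 13, 30659999 to 30711231) was read at 4.43, 3.19, 3.13 and 4.12 CPM in GOF mice, against 1.94, 1.17 and 1.18 CPM in WT mice, from 50 to 68 counts per GOF library and 17 to 27 per WT library. The groups did not overlap, with a log2 fold change of 1.37 (SE 0.32, edgeR adjusted p = 0.0109). Of the 7 calls this was the weakest, and it was lost without GOF replicates 1 and 3 (1.34, adjusted p = 0.0681) and after quantile normalization (limma, 0.73, adjusted p = 0.0520).

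Dusp11 (ENSMUSG00000030002, chromosome 6, 85942268 to 85961667) was read at 297, 390.1, 284 and 339 CPM in GOF mice, against 364, 441 and 414 CPM in WT mice. GOF replicate 2 lay within the WT range and the other GOF mice below it. Its log2 fold change was -0.31 (SE 0.12), and the call was not made with all libraries (edgeR adjusted p = 0.0862) but was made without GOF replicate 2 (-0.40, adjusted p = 0.0238). The antisense gene Gm19265 shares 45 exon bases with Dusp11, and its 4 to 14 counts per GOF library and 16 to 28 per WT library are small beside the counts of Dusp11. Per kilobase, Dusp22 stood at 0.0175 to 0.0318 of the Dusp11 level in GOF mice and at 0.00567 to 0.0114 in WT mice, without overlap (exact permutation p = 0.0571, adjusted 0.0714).

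**Figure D2:**
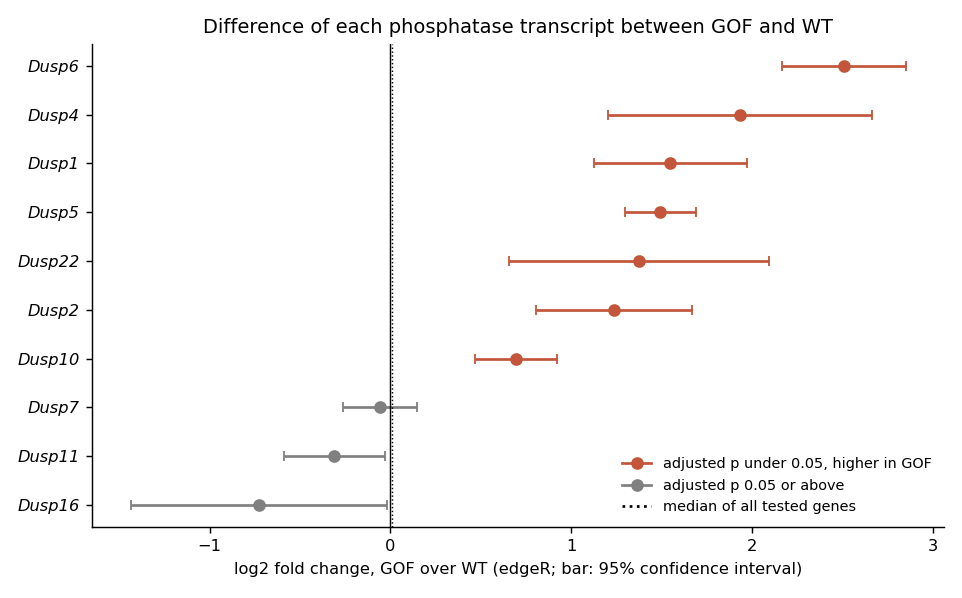
The log2 fold change of GOF over WT for each phosphatase transcript (horizontal axis), with bars for the 95% confidence interval from edgeR and a dotted line at the median of all tested genes, 0.01. Dusp6 stands highest at 2.51, the intervals of the 7 red genes lie above 0, and the interval of Dusp7 spans 0.

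To compare levels between genes, CPM was divided by the length of the principal GENCODE transcript in kilobases. In GOF mice Dusp1 averaged 171 ± 7.28 and Dusp2 148 ± 22.4 CPM per kilobase (SD, n = 4). Dusp1 was above Dusp2 in each of the 4 mice while their ranges overlapped. Next came Dusp11 at 50.9 and Dusp5 at 50.3 CPM per kilobase, whose ranges overlapped. Dusp10 at 43.1 lay below Dusp5 in every GOF mouse, but above Dusp11 in GOF replicate 1 (46.5 against 46.1). Dusp7 at 28.6 and Dusp6 at 18.0 followed, each below the last in every GOF mouse. Dusp4 at 2.11, Dusp22 at 1.23 and Dusp16 at 0.592 CPM per kilobase closed the order, without overlap between neighbours.

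In WT mice the order was another. Dusp11 averaged 63.1 ± 6.07, Dusp2 62.7 ± 17.4 and Dusp1 58.5 ± 17.5 CPM per kilobase (SD, n = 3), with overlapping ranges that set no order among them. Dusp7 at 29.8 and Dusp10 at 26.6 overlapped as well. Below them Dusp5 at 17.9, Dusp6 at 3.17 and Dusp16 at 0.980 followed without overlap, and then Dusp4 at 0.551 and Dusp22 at 0.475, which overlapped. With the deposited FPKM, whose length for Dusp1 (5142 bases) exceeds its principal transcript (1990 bases), Dusp2 led in GOF mice at 103 and in WT mice at 41.4 FPKM. Dusp1 was then at 67.6 FPKM in GOF mice and 21.95 FPKM in WT mice. Other positions moved as well. By FPKM in GOF mice Dusp5 (51.4) and Dusp10 (35.0) stood above Dusp11 (33.6), with overlap between Dusp10 and Dusp11, and Dusp6 (18.4) and Dusp7 (18.2) overlapped, as did Dusp4 (2.16) and Dusp22 (1.89). By FPKM in WT mice Dusp16 was last at 0.373, overlapping with Dusp4 at 0.535, and Dusp7 (18.0) overlapped with Dusp5 (17.3). The order of the levels between genes therefore rests on the transcript length used.

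Summed by role, the 4 nuclear inducible members reached 342 to 412 CPM per kilobase in GOF mice and 104 to 173 in WT mice. This was 70.6% to 74.4% of the sum over the 10 genes in GOF mice, against 44.2% to 59.4% in WT mice. The cytoplasmic pair summed to 45.6 to 47.8 CPM per kilobase in GOF mice and 31.2 to 35.2 in WT mice, with no overlap although Dusp7 itself had overlapping groups. The JNK and p38 pair summed to 39.9 to 47.2 in GOF mice and 25.1 to 30.0 in WT mice, nearly all of it Dusp10. The atypical pair, nearly all Dusp11, took 9.24% to 11.7% of the sum in GOF mice and 19.6% to 29.1% in WT mice. The sum of all 10 was 483 to 554 CPM per kilobase in GOF mice and 236 to 291 in WT mice. With the deposited FPKM the nuclear share was 65.5% to 70.2% in GOF mice and 42.3% to 55.8% in WT mice.

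**Figure D3:**
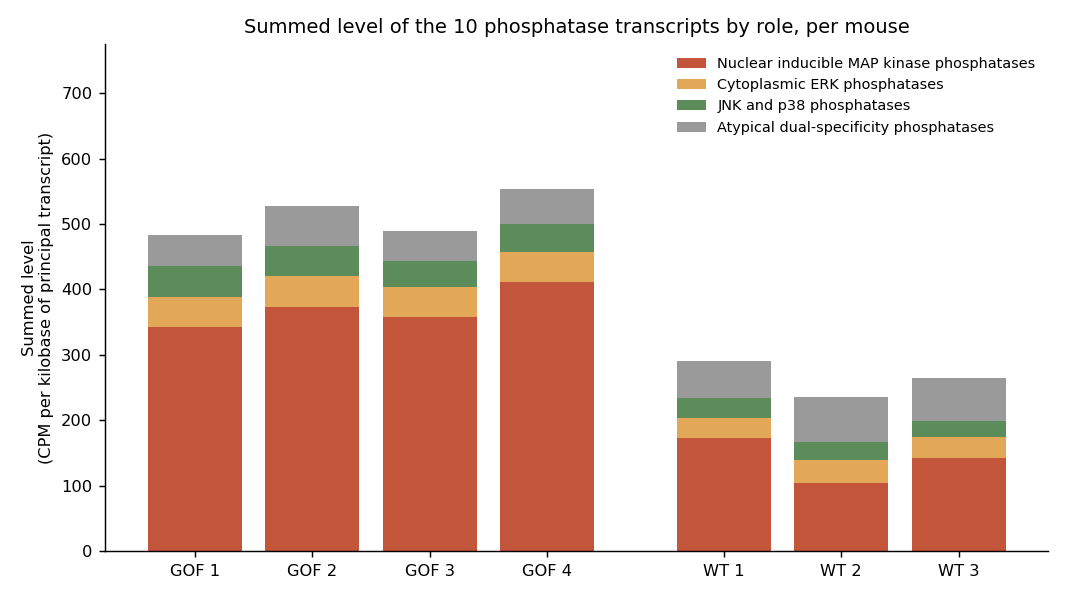
Summed level of the 10 phosphatase transcripts (CPM per kilobase of principal transcript, linear axis from 0) in each of 4 GOF and 3 WT mice, stacked by role. The nuclear inducible part reaches 342 to 412 in GOF mice and 104 to 173 in WT mice, while the atypical part spans 45.2 to 61.7 in GOF mice and 57.2 to 68.8 in WT mice.

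The 3′ untranslated regions, where ATTTA pentamers are known to mark short-lived messages, were read for the principal transcripts of GENCODE M21. In the first 500 bases Dusp1 and Dusp2 held 3 pentamers each, a number reached by 9.01% of 13314 transcripts with a region of that length. Dusp11 held 2 (reached by 22.4%) and Dusp4 held 1 (reached by 49.9%). The other 6 members held 0 there. Over the whole region, of unequal length between genes, Dusp11 held 18, Dusp1 and Dusp2 4 each, Dusp10 and Dusp16 3 each, Dusp4 and Dusp22 2 each, Dusp5 and Dusp6 1 each and Dusp7 0. Stability was not measured.

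For each member the genes most like it were named by the root mean square difference of mean-centred log2(CPM + 0.5) over the 7 libraries, which share their depth and the 2 groups. Dusp6 lay nearest to Hspa12a (0.09), Egr1 (0.15) and Acot7 (0.16), and 1 gene in all lay within 0.1 of it. Dusp5 lay nearest to Treml2 (0.07), Cd6 (0.08) and Parp3 (0.08), with 7 genes within 0.1. The nearest genes were Cisd3 (0.15), Spin2c (0.15) and Slc25a13 (0.15) for Dusp1. Those of Dusp2 were Zfyve28 (0.12), Slc25a13 (0.14) and 1810041H14Rik (0.15), so that Slc25a13 was shared with Dusp1. Dusp10 lay nearest to Atp6v1a (0.07), Rps6kb2 (0.08) and Trafd1 (0.08).

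The low members Dusp4, Dusp16 and Dusp22 had 0 genes within 0.1 of them, as had Dusp1 and Dusp2. Dusp4 lay nearest to Kif2c (0.11), Rnf144a (0.14) and Ankrd6 (0.15), Dusp22 to Ccdc69 (0.14), Kdelc2 (0.15) and Gbp2 (0.16), and Dusp16 to Casp9 (0.13), 4930524O07Rik (0.17) and Fpr2 (0.18), the last 2 of which averaged 0.849 and 0.742 CPM in GOF mice. Dusp7, for which 578 genes lay within 0.1, was nearest to Kpnb1, Ppil4 and U2surp (0.02 to 0.03). Dusp11, with 190 such genes, was nearest to Usp16, Zfp658 and Kdm1b (0.03 to 0.04). These last 6 genes, like Dusp7 and Dusp11, did not pass the threshold.

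Of 22 further dual-specificity phosphatases and relatives, 11 passed the low-count filter and 5 (Dusp13, Dusp15, Dusp21, Dusp26 and Dusp27) had 0 counts in all libraries. Of the 11, 0 were higher and 1 was lower with edgeR, with a median log2 fold change of 0.18. At an unadjusted p under 0.05, 2 were higher. Over all tested genes 16.8% were higher and 14.5% lower. The lower one was Ssh1, a phosphatase of the actin regulator cofilin, at 48.5 ± 4.53 CPM in GOF cells and 61.7 ± 3.92 CPM in WT cells. Its log2 fold change of -0.35 (edgeR adjusted p = 0.0335) lost its call without each of 6 of the 7 libraries in turn (adjusted p up to 0.103). With DESeq2 1 of the 11 was higher, and without WT replicate 2 there were 3.

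Upstream of the MAP kinases, 3 of 18 Ras proteins and regulators were higher and 5 lower in GOF cells, with a median log2 fold change of -0.17. The counts of this and every list below stand beside 16.8% higher and 14.5% lower over all tested genes. The higher count of this list was near that share. Rasal1, a GTPase-activating protein that switches Ras off, was read at 51.5, 56.0, 51.9 and 60.8 CPM in GOF mice, against 5.24, 7.99 and 7.94 CPM in WT mice (log2 fold change 2.96, edgeR adjusted p = 6.66e-06). Rasgrp1, the exchange factor that loads Ras with GTP after antigen receptor signals, stood at 537 ± 44.4 CPM in GOF cells and 1242 ± 64.4 CPM in WT cells (log2 fold change -1.21, edgeR adjusted p = 2.42e-05). Rras2, a Ras-related GTPase, fell by 1.00 on the log2 scale (edgeR adjusted p = 6.00e-05). Rasgrp4, an exchange factor known from mast cells and myeloid cells, was read at 9.31, 5.94, 7.88 and 5.21 CPM in GOF mice and at 0.139 to 0.431 CPM in WT mice, with replicates 1 and 3 above replicates 2 and 4 as for the myeloid markers described further on. Named after their values were seen, Rasgrp2 was also higher (log2 fold change 0.75), and Rasa1 (-0.98) and Rasa3 (-1.06) were among the others that were lower.

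Next came the kinases of the cascade, beside the same 16.8% higher and 14.5% lower over all tested genes. Their small counts are not read as a difference of these lists. Of 13 MAP kinase kinase kinases tested 0 were higher with edgeR, with DESeq2 and at an unadjusted p under 0.05. That count was 1 without WT replicate 2 and 1 after quantile normalization with limma. With edgeR 2 were lower, Map3k5, an activator of JNK and p38 (log2 fold change -1.67, edgeR adjusted p = 6.21e-06), and Map3k3 (-0.42, adjusted p = 0.00526). Of 7 MAP kinase kinases 1 was higher and 2 lower. Map2k1, which phosphorylates ERK, fell to 75.5 ± 3.25 CPM in GOF cells, against 98.7 ± 4.72 CPM in WT cells (log2 fold change -0.39, edgeR adjusted p = 0.00739). Map2k6 (0.42, adjusted p = 0.0320) and Map2k5 (-0.38, adjusted p = 0.0333) each lost their call without 6 of the 7 libraries in turn (adjusted p up to 0.0803 and 0.10). Of 10 MAP kinases tested Mapk11, a p38 kinase, was higher (0.53, adjusted p = 0.0325) and Mapk7, known as ERK5, lower (-0.64, adjusted p = 0.00573). The call of Mapk11 was lost without GOF replicate 2 or 4 or WT replicate 1 or 3 (adjusted p = 0.0658 to 0.122). Mapk3, an ERK kinase, did not pass (59.8 CPM in GOF cells and 65.9 CPM in WT cells, log2 fold change -0.14, edgeR adjusted p = 0.372). Without GOF replicates 1 and 3 the calls of Mapk7 (adjusted p = 0.0566), Map2k1 (0.0801) and Map3k3 (0.0599) were lost too.

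Among the other brakes of the pathway, 2 of 5 Sprouty and SPRED inhibitors were higher and 0 lower with edgeR, with DESeq2 and at an unadjusted p under 0.05. Spry2 was read at 9.24, 6.32, 6.38 and 6.43 CPM in GOF mice, against 0.287, 1.38 and 1.11 CPM in WT mice (log2 fold change 2.92, edgeR adjusted p = 0.00126). Spred2 rose less (0.48, edgeR adjusted p = 0.0105, and 0.0597 without GOF replicates 1 and 3). Of 7 other phosphatases of MAP kinases 2 were higher and 2 lower. Ptpn7, the tyrosine phosphatase of ERK and p38 in blood cells, was read at 129, 157, 125 and 135 CPM in GOF mice, against 38.4, 39.2 and 38.2 CPM in WT mice. Its log2 fold change of 1.82 (SE 0.10, edgeR adjusted p = 6.41e-06) lay between those of Dusp4 and Dusp1. Ptpn5 was called higher at 1.17 to 1.54 CPM in GOF mice and 0 to 0.431 CPM in WT mice (log2 fold change 2.85, edgeR adjusted p = 0.0158, and 0.0553 without WT replicate 2). The serine and threonine phosphatases Ppm1a (log2 fold change -0.64, edgeR adjusted p = 0.00126) and Ppm1d (-0.38, adjusted p = 0.0430) were lower, Ppm1d without support when any of 6 of the 7 libraries was left out (adjusted p up to 0.126).

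Downstream, 1 of 10 MAP kinase-activated kinases was higher and 1 lower, beside 16.8% and 14.5% of all tested genes. Rps6ka1 was higher (log2 fold change 0.59, edgeR adjusted p = 0.00134). Rps6ka3 fell by 1.00 on the log2 scale (adjusted p = 0.0232, lost without 5 of the 7 libraries in turn, adjusted p up to 0.0776). Of 6 ternary complex factors and partners of serum response factor, 3 were higher and 1 lower. Srf itself stood at 162 ± 11.8 CPM in GOF cells and 121 ± 7.16 CPM in WT cells (0.43, edgeR adjusted p = 0.00637), Elk3 rose by 0.61 (adjusted p = 0.000846) and Elk4 by 0.26 (adjusted p = 0.0395, lost without 6 of the 7 libraries in turn). Mkl1, a coactivator of Srf, was at 215 ± 13.1 CPM in GOF cells and 491 ± 8.00 CPM in WT cells (log2 fold change -1.19, adjusted p = 1.12e-05).

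Of the 10 other lists of the MAP kinase pathway, the one with the median nearest to that of the phosphatases was the immediate early genes, transcripts that appear within minutes of a signal without new protein. Of its 24 tested members 14 were higher and 3 lower in GOF cells, with a median log2 fold change of 1.19, against 1.30 for the phosphatases and 0.01 for all tested genes. Egr1, a transcription factor induced by ERK, was read at 98.8, 101, 105 and 94.3 CPM in GOF mice, against 22.7, 16.6 and 21.3 CPM in WT mice. It differed by 2.30 on the log2 scale (edgeR adjusted p = 5.95e-06). Its value is close to that of Dusp6, whose second nearest gene it was. On the same scale Junb, an AP-1 subunit, differed by 2.34 (edgeR adjusted p = 3.12e-05), Nfkbid, a regulator of NF-kappaB, by 2.72 (adjusted p = 2.73e-05) and Nr4a1, an orphan receptor induced by antigen receptor signals, by 5.45 (adjusted p = 0.000105). The 3 that fell, named after their values were seen, were Myc (-1.36), Nfkbia (-0.89) and Ier5 (-0.36). Junb at 488, 276 and 352 CPM in WT mice was lowest in WT replicate 2, as were Egr1, Dusp1 and Dusp2. Nfkbid (17.2, 30.4 and 18.5 CPM) and Nr4a1 (2.08, 11.9 and 2.79 CPM) were highest there, as was Dusp4. The list was chosen with results of these data known, so it is no independent evidence.

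**Figure D4:**
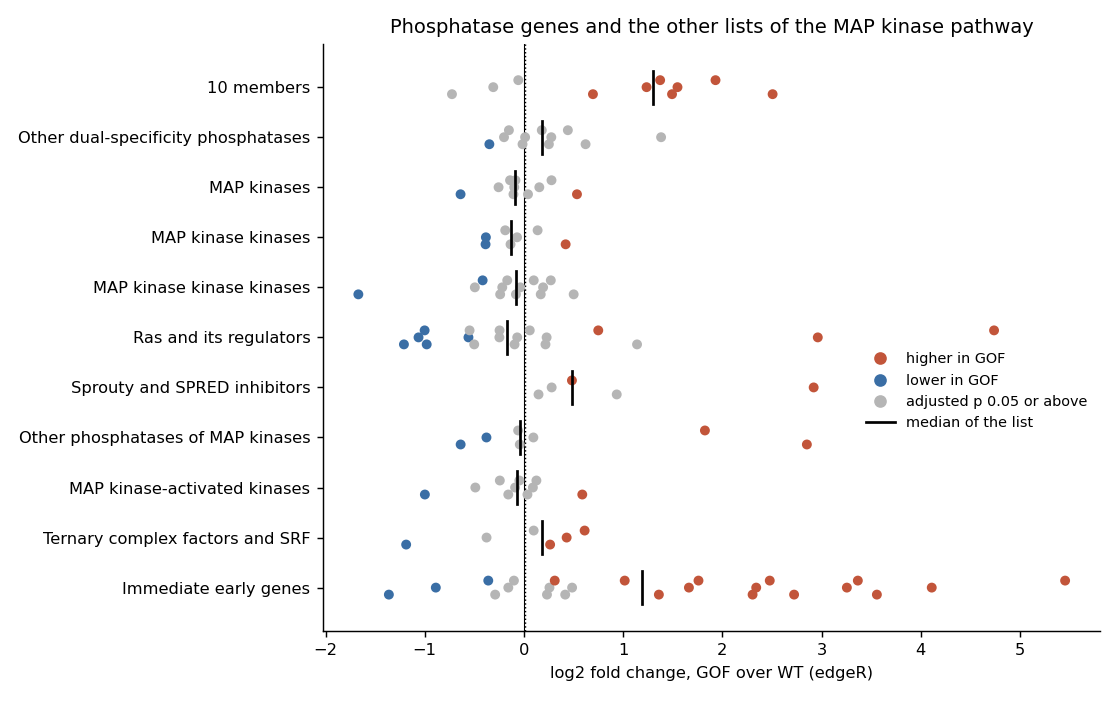
The log2 fold change of GOF over WT (horizontal axis, edgeR) of each tested gene in the phosphatase group and 10 other lists of the MAP kinase pathway, coloured by call, with a black bar for the median of each list. The medians of the 10 phosphatases (1.30) and of the immediate early genes (1.19) lie to the right, and those of the kinase lists lie near 0.

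The libraries held 14497957 to 16293539 counts each. Pik3cd itself was at 543, 762, 538 and 765 CPM in GOF mice, against 938, 1511 and 959 CPM in WT mice (log2 fold change -0.80, edgeR adjusted p = 0.0154, and -0.58 with adjusted p = 0.106 without GOF replicates 1 and 3). This level says nothing of the activity of the allele. CD4 T cell markers summed to 7251 to 8170 CPM in GOF and 7035 to 7997 CPM in WT libraries, with Tcf7, Cd4 and Lef1 the most abundant. Markers of memory and effector CD4 T cells were higher for 10 of 12 genes and lower for 1 (Icos), with sums of 752 to 779 CPM in GOF and 179 to 209 CPM in WT libraries. Cd69 and Lgals1 led them.

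Markers of other cells moved with the GOF group too. Myeloid markers were higher for 14 of 15 genes (Lyz2, Vcam1 and Csf1r the most abundant, with the call of Lyz2 lost without any 1 of 4 libraries, adjusted p up to 0.144), with sums of 504, 176, 536 and 197 CPM in GOF replicates 1 to 4 and 38.2 to 74.3 CPM in WT libraries. Neutrophil markers were higher for 9 of 10 (S100a9, Ngp and Ltf leading), with sums of 63.1 to 210.2 CPM in GOF and 0.551 to 8.41 CPM in WT libraries, where Camp was at 0. B cell markers were higher for 6 of 11 (Ighm, Igkc and Cd79a leading), with sums of 783 to 1378 CPM in GOF and 370 to 500.2 CPM in WT libraries. Their count was 10 without WT replicate 2 and 3 without GOF replicates 1 and 3, and the call of Cd79a was lost without any 1 of 4 libraries (adjusted p up to 0.131). NK and CD8 T cell markers were higher for 10 of 12 (Prf1, Nkg7 and Eomes leading), with 141 to 198 CPM in GOF and 63.9 to 86.3 CPM in WT libraries, and for 6 without GOF replicates 1 and 3. Red blood cell and platelet markers were higher for 6 of 10 tested, with 27.5 to 91.2 CPM in GOF and 18.1 to 32.1 CPM in WT libraries, where Car1 and Gp9 were at 0. Leaving out GOF replicate 1, GOF replicate 3, WT replicate 1 or WT replicate 3, or both GOF replicates 1 and 3, brought that count to 2. Of 8 regulatory T cell markers 4 were higher, among them Foxp3 and Ctla4, and 4 lower, among them Tnfrsf18, with sums of 351 to 384 CPM in GOF and 378 to 534 CPM in WT libraries.

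GOF replicates 1 and 3 lay above replicates 2 and 4 for the myeloid, neutrophil, B cell, NK and CD8 T cell and red blood cell sums, and also for the CD4 T cell sum (8034 and 8170 CPM, against 7251 and 7410 CPM). Among the 10 phosphatases this was so for 2, Dusp6 and Dusp16. Across the 4 GOF mice the highest value was 3.05 times the lowest for the myeloid sum, 3.33 times for the neutrophil sum, 3.32 times for the red blood cell and platelet sum, 1.76 times for the B cell sum, 1.41 times for the NK and CD8 T cell sum and 1.13 times for the CD4 T cell sum. For the 7 phosphatases called higher this ratio was 1.07 to 1.44, a range that also holds the NK and CD8 T cell and the CD4 T cell sums. It was 1.12 for Dusp7, 1.37 for Dusp11 and 2.31 for Dusp16, which were not called. With GOF replicates 1 and 3 removed, a choice made on seeing the values, 6 of the 7 remained called. The edgeR adjusted p-values of these 6 were up to 0.0210. Their log2 fold changes were 2.39 for Dusp6, 1.91 for Dusp4, 1.58 for Dusp1, 1.53 for Dusp5, 1.36 for Dusp2 and 0.70 for Dusp10. Dusp22 lost its call (1.34, edgeR adjusted p = 0.0681). GOF replicates 2 and 4, which were kept, still had myeloid sums of 176 and 197 CPM, against 38.2 to 74.3 CPM in WT libraries. Across the GOF mice the highest memory and effector sum was 1.035 times the lowest. The part of these cell types in the phosphatases' difference was not tested.

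**Figure D5:**
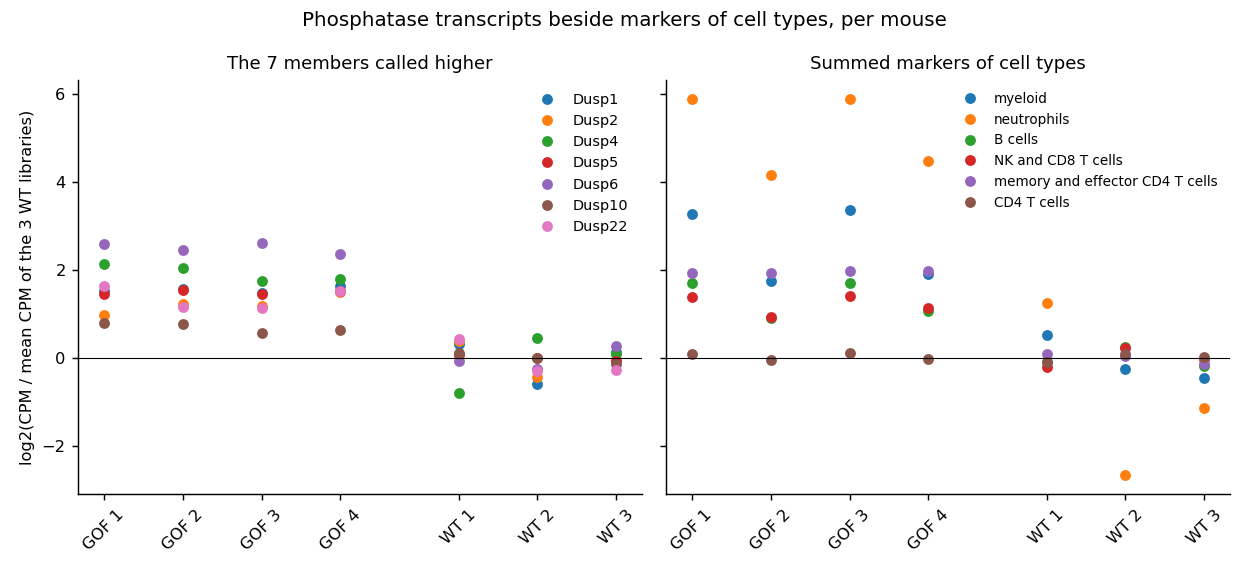
For each of 4 GOF and 3 WT mice, the level of the 7 phosphatase transcripts called higher (left) and the summed level of cell type markers (right), as the log2 ratio of CPM to the mean of the 3 WT libraries. Over the GOF mice the highest value is 1.07 to 1.44 times the lowest for the phosphatases and 1.035 times for memory and effector markers. It is 3.05 times the lowest for the myeloid and 3.33 times for the neutrophil markers. For the CD4 T cell markers it is 1.13 times, for the NK and CD8 T cell markers 1.41 times and for the B cell markers 1.76 times. All marker sums shown but the memory and effector sum are higher in GOF replicates 1 and 3 than in 2 and 4. Among the phosphatases shown this holds for Dusp6.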

How the data were processed

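Raw counts and FPKM per gene and library were deposited by the authors in 1 table of 34745 genes, with Ensembl identifiers and mm10 loci. Per the submitters' processing notes, HISAT2 2.0.4, Cufflinks 2.1.1 and Cuffdiff were used, while the labels state neither a counting rule nor a strand setting. The deposited FPKM equalled the count divided by the column total and a fixed length per gene, within 0.1% for 100% of values. For Dusp2, Dusp7 and Dusp10 that length equalled the sum over their several GENCODE M21 transcripts. For Dusp1 it was 5142 bases, where the deposited locus spans 2930 and the transcripts sum to 8959. For Dusp22 it was 2014 bases, below its principal transcript of 3015. Levels between genes were therefore given as CPM per kilobase of the principal GENCODE M21 transcript, beside the planned FPKM order.

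Counts were tested with edgeR 4.0.16 (quasi-likelihood, filterByExpr, TMM, all 7 libraries, no covariate, Benjamini-Hochberg at 0.05) in R 4.3.3. CPM used library sizes scaled by TMM, from totals of 14497957 to 16293539 counts, 0 columns of per-sample values were left unused, and 16172 genes had 0 counts in all libraries. Standard errors and 95% intervals come from that fit. Alternatives used limma 3.58.1, on log2 values of the deposited FPKM with a pseudocount of 1 or 0.1, and DESeq2 1.42.0. The test was tried on simulated data. The exact permutation test of 4 against 3 mice cannot go below p = 0.0571 and was used only for ratios between members.

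The members and all gene lists were chosen with earlier results of these data known. Named genes are the members, Pik3cd, up to 4 genes per pathway list with the smallest p among those called, the 3 genes nearest in pattern to each member, and up to 3 markers per cell type by mean CPM. Groups and replicate numbers came from the sample titles. No 2 libraries agreed within sampling noise. A gene listed more than 1 time by symbol was followed by identifier.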

Additional observations from a re-analysis of the deposited data

How the results depend on the processing

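The 18 alternatives left Dusp1, Dusp2, Dusp4, Dusp5, Dusp6 and Dusp10 called higher in each, with log2 fold changes between 0.63 (Dusp10) and 2.66 (Dusp6). Dusp22 was called in 15 of them, and lost without GOF replicates 1 and 3 together, without these and WT replicate 2 (log2 fold change 1.23, adjusted p = 0.102) and after quantile normalization, so that 6 to 7 members were higher. The members lower numbered 1 after quantile normalization (Dusp16), and 1 without GOF replicates 2 and 4 together (Dusp11). With each library left out in turn there were 0 to 1, the 1 being Dusp11 without GOF replicate 2. Correlations of the deviations of same-numbered mice were 0.03, 0.15 and -0.04, and those of differently numbered mice ran from -0.18 to 0.13. So few mice cannot decide whether the replicate numbers pair them. With the replicate number as a block, 7 members were higher and 1 lower (Dusp11, log2 fold change -0.34, adjusted p = 0.0474), and over all genes the counts became 1677 and 1519.

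Without GOF replicates 1 and 3 the count over all genes was 1074 on the higher side and 1050 on the lower, and 1259 and 1016 without these and WT replicate 2, where fewer libraries entered. These 3 sets of left-out libraries were chosen after the data were seen. With limma on log2(FPKM + 1) 2606 genes were higher and 1393 lower, and on log2(FPKM + 0.1) 2672 and 1385.

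The sign of Dusp7, Kpnb1 and U2surp, none of them called, turned to 0.0196, 0.0495 and 0.0163 with column totals, to 0.0195, 0.0488 and 0.0146 on log2(FPKM + 1), to 0.0205, 0.0496 and 0.0166 on log2(FPKM + 0.1), and to 0.0478, 0.0922 and 0.0499 after quantile normalization. Without WT replicate 2 it turned to 0.00857, 0.0303 and 0.0190, and without WT replicate 2 and GOF replicates 1 and 3 to 0.0800, 0.11 and 0.11. Without GOF replicates 1 and 3, Kpnb1 turned to 0.0356 and U2surp to 0.0158. With each library left out in turn the log2 fold change was -0.10 to 0.00857 for Dusp7, -0.0664 to 0.0303 for Kpnb1 and -0.11 to 0.0190 for U2surp. Ppil4 turned to 0.0152 after quantile normalization and to 0.0165 without those 3 libraries. The cause was not tested. The counts of Dusp4, Dusp16 and Dusp22, at most 102 per library, limit their precision.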
